A study of Mus musculus with 10 samples.

Results

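Transcripts of the matrix metalloproteinases (MMPs), the ADAMTS proteases and ADAMTS-like proteins, and the tissue inhibitors of metalloproteinases (TIMPs) were measured in diabetic ulcers of mice treated with Fu Huang ointment. Members were the rows of the gene table whose symbol matched the pattern of these family names and that held any count, which gave 51 of 55421 genes: 23 MMP, 19 ADAMTS, 5 ADAMTS-like and 4 TIMP genes. The mice were db/db, which carry a mutant leptin receptor and become obese and diabetic; their ulcers had been produced by surgical resection, and tissue was sequenced after 7 days of administration. The ointment group (5 libraries) had Fu Huang ointment, a preparation put on the wound, together with saline, and the control group (5 libraries) had saline. Both groups share the db/db genotype and the wound, and no unwounded skin or non-diabetic animal was compared here. The labels give neither age nor sex, and do not tie libraries to individual animals. The p-values therefore rest on the spread among these libraries, part of which may be technical.

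MMPs are zinc-dependent endopeptidases that are made as inactive precursors. They cleave collagens, gelatin, elastin, proteoglycans and many non-matrix proteins once their propeptide has been removed. ADAMTS proteases carry thrombospondin repeats and include the proteoglycanases, which cut versican and aggrecan, and the procollagen N-proteinases, which trim fibrillar procollagens. ADAMTS-like proteins share the thrombospondin repeats but lack the protease domain. TIMPs bind the active site of MMPs, and TIMP3, which is held in the matrix, also inhibits several ADAMTS and ADAM enzymes. In skin wounds, keratinocytes at the wound edge, fibroblasts, macrophages and neutrophils each make a different set of these enzymes. Transcript levels do not show how much of an enzyme is secreted, activated or bound by an inhibitor.

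The libraries held 47.8 to 62.9 M counts (M, mega) with ointment and 58.1 to 62.7 M with saline. Levels are given in CPM, counts scaled to library size by TMM, and differences are log2 fold changes of ointment against saline with their standard error (SE), from edgeR's quasi-likelihood test with Benjamini-Hochberg adjustment over 18509 genes. A gene was called at an adjusted p under 0.05, and 310 genes (1.67% of those tested) were called, 128 of them (0.692%) higher with ointment. In 1211 genes (6.54%) the values of the 5 ointment libraries did not overlap with those of the 5 saline libraries, 575 (3.11%) higher and 636 (3.44%) lower with ointment. Markers of cell types were read beside the members, and none was at 0 in all libraries. The summed level of 11 macrophage markers was 7205 to 9813 CPM with ointment and 3332 to 5813 CPM with saline, that of 12 neutrophil markers 1749 to 8460 and 854 to 2983 CPM, and that of 6 mural cell markers 369 to 883 and 837 to 1243 CPM. The 8 fibroblast markers summed to 11470 to 32300 CPM with ointment and 17390 to 28080 CPM with saline, with 3 of 8 positive and none called by edgeR or DESeq2 (2 at an unadjusted p under 0.05). All 6 mural markers were negative and 1 was called. Hair follicle markers, with 6 of 8 called lower, summed to 13 to 40.0 CPM with ointment and 36.0 to 657 CPM with saline. In tissue RNA, fewer cells of a type and less RNA per cell cannot be told apart.

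A handful of members made up most of the transcript of these families. Compared per length, as CPM per kb of annotated exon averaged over the 10 libraries, 16 of the 51 members reached 10 CPM per kb. The inhibitor Timp1 stood highest at 851 ± 640.3 CPM per kb (SD, n = 10), ahead of the stromelysin Mmp3 at 539 ± 142 and the gelatinase Mmp2 at 259 ± 101 CPM per kb. Timp1 and Mmp3 overlapped in mean ± SD and changed places between the groups, Timp1 leading with ointment and Mmp3 with saline, while Mmp3 exceeded Mmp2 in all 10 libraries. Next came Timp2 at 127 ± 92.5, Mmp14 at 92.5 ± 54.4, Mmp13 at 82.3 ± 58.2 and Mmp9 at 70.8 ± 53.3 CPM per kb, whose ranges of mean ± SD overlap. The most abundant ADAMTS gene was Adamts2, the procollagen I N-proteinase, at 32.3 ± 9.65 CPM per kb. Mmp9 ranked 5 of 51 members in ointment ulcers, at 116 ± 36.2 CPM per kb (SD, n = 5), and 9 of 51 in saline ulcers, at 26.2 ± 9.60 CPM per kb. Mmp13 ranked 4 with ointment, at 122 ± 42.1 CPM per kb, and 6 with saline, at 42.7 ± 43.9 CPM per kb. The order rests on merged exon length, and with the longest transcript as length 18 members reached the same level. Ranks then changed too. With ointment Mmp9 (128.7 CPM per kb) stood above Mmp13 (121.9), and with saline Mmp9 (29.15) fell below Mmp11 (36.18), Timp3 (38.29) and Mmp23 (38.74). Over all 10 libraries Mmp14 (170.3) stood above Timp2 (133.6).

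**Figure D1:**
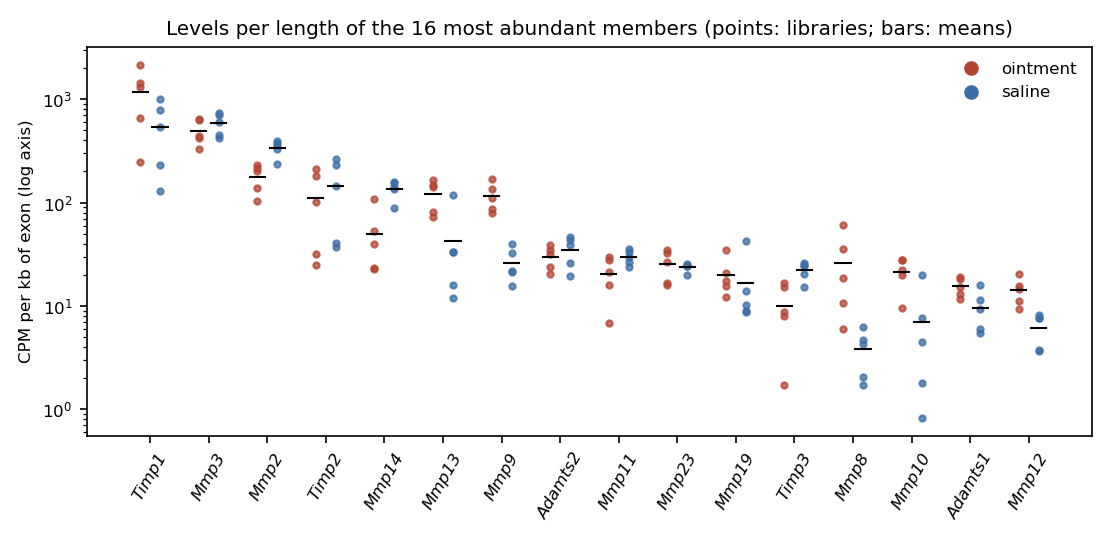
Level per length (CPM per kb of exon, log axis) of the 16 members with at least 10 CPM per kb on average, in ointment and saline libraries, with a point per library and a bar for the mean. Timp1 and Mmp3 are at the top in both groups, and Mmp9 and Mmp12 are the genes of the 16 with every ointment point above every saline point.

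Of the 51 members, 48 had enough counts to be tested. The other 3 were Mmp7 (matrilysin), Mmp20 (enamelysin of teeth) and Mmp21, with 15, 13 and 6 counts in all 10 libraries together. A single member, Mmp9, was called, and it was higher with ointment. That is 2.08% of the members tested, beside 1.67% of all genes, so the share called is near the background. The groups did not overlap in 6 members (12.5%, beside 6.54% of all genes): Mmp9, Mmp12, Mmp25 and Timp4 were higher in every ointment library, and Mmp2 and Adamts18 were lower in every ointment library. At an unadjusted p under 0.05 there were 14 members (29.2%), beside 17.1% of all genes. DESeq2's Wald test, run on the same counts, called 9 members (18.8%), beside 9.06% of all genes. The 9 were Mmp1b, Mmp8, Mmp9, Mmp12, Mmp25 and Timp4, higher with ointment, and Mmp2, Mmp14 and Adamts18, lower with ointment. Adamts18 was at the edge of the threshold, with an adjusted p by DESeq2 that rounds to 0.05. Differences were positive in 19 of the 48 members and negative in 29, with a median log2 fold change of -0.18, beside 49.7% positive and a median near 0 (-0.003) over all genes. By family, 11 of 20 MMP genes were positive, 5 of 19 ADAMTS genes, 1 of 5 ADAMTS-like genes and 2 of 4 TIMP genes.

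**Figure D2:**
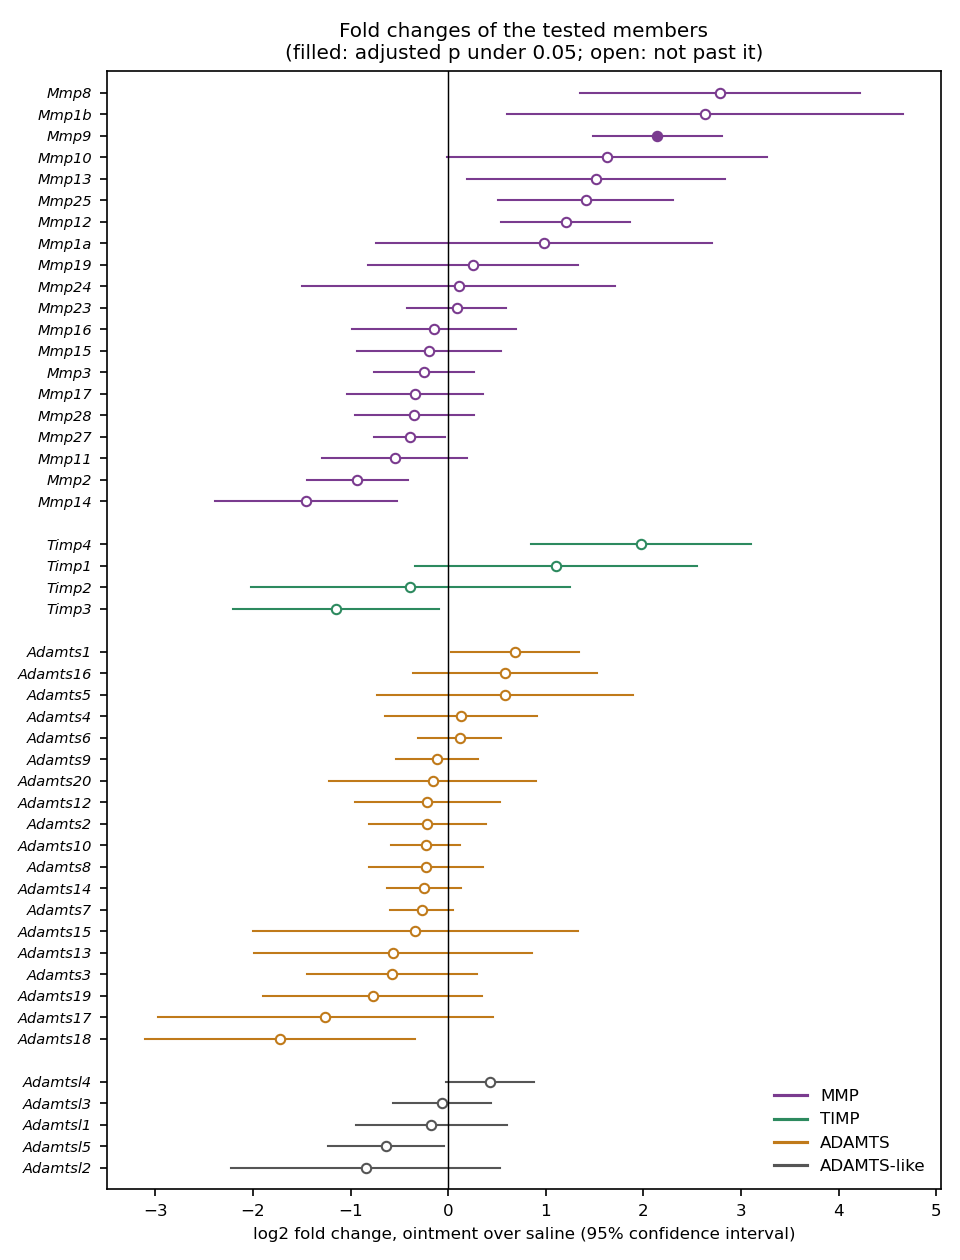
Log2 fold change of ointment against saline (x axis) for the 48 members tested, grouped by family, with 95% confidence intervals from edgeR as bars and the called gene as a filled point. Mmp9 is the called member, Mmp1a, Mmp1b, Mmp8 and Mmp13 all lie to the right of 0, and most ADAMTS genes lie to its left with intervals that include 0.

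The gelatinases, which digest denatured collagen and basement membrane type IV collagen, differed in direction: Mmp9 rose with ointment, and Mmp2 was lower in every ointment library without passing the threshold. Mmp9 (chr2:164940780-164955850, GRCm38, a protein-coding gene) is the inducible gelatinase B of leukocytes and migrating keratinocytes. It stood at 304, 476, 389.9, 282 and 592 CPM in ointment libraries 1 to 5, against 55.3, 115, 74.8, 139 and 77.9 CPM in saline libraries 1 to 5. The lowest ointment library was above the highest saline library. Mmp9 rose 4.42-fold (log2 fold change 2.14, SE 0.30, adjusted p = 0.0143, 95% confidence interval 1.48 to 2.81 on the log2 scale). It stayed past the threshold whichever library was left out, with an adjusted p between 0.0145 and 0.0383. Mmp2 (chr8:92827291-92853420) is gelatinase A, made mainly by fibroblasts and activated at the cell surface by MMP14. Ointment libraries 1 to 5 held 775, 471, 679, 734 and 348 CPM of Mmp2, against 1108, 1227, 1326, 804 and 1261 CPM in saline libraries 1 to 5. All ointment values lay below all saline values, the nearest pair being ointment 1 and saline 4. Its difference did not pass the threshold over all genes (log2 fold change -0.93, SE 0.23, adjusted p = 0.0778). The ratio of Mmp9 to Mmp2, per length, was 0.773 ± 0.531 with ointment and 0.0830 ± 0.0486 with saline (SD, n = 5 each), ranging over 0.366 to 1.62 and 0.0476 to 0.165. Its lack of overlap follows from the values of the 2 genes above and is not a further result.

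Mmp9 is transcribed in macrophages and neutrophils among other cells, and the summed markers of these cells differed between the same libraries. Neutrophil markers summed to 2372, 5327, 3608, 1749 and 8460 CPM in ointment libraries 1 to 5, against 854, 1997, 1402, 2983 and 1086 CPM in saline libraries 1 to 5. In both groups the library with the most Mmp9 (ointment 5 and saline 4) had the highest neutrophil sum and also the highest macrophage sum. All 11 macrophage markers tested were positive and 2 were called, while 10 of 11 neutrophil markers were positive and none was called by edgeR, with 8 at an unadjusted p under 0.05 and 6 called by DESeq2. The 7 wound keratinocyte markers summed to 8687 to 18450 CPM with ointment and 7786 to 16880 CPM with saline, with 4 positive and 3 negative. The 7 basal keratinocyte markers, all negative, summed to 10480 to 19270 CPM with ointment and 10920 to 19430 CPM with saline. No keratinocyte marker was called by edgeR or DESeq2, with 2 wound and 1 basal at an unadjusted p under 0.05. The part of any of these cell types in the Mmp9 difference was not tested.

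**Figure D3:**
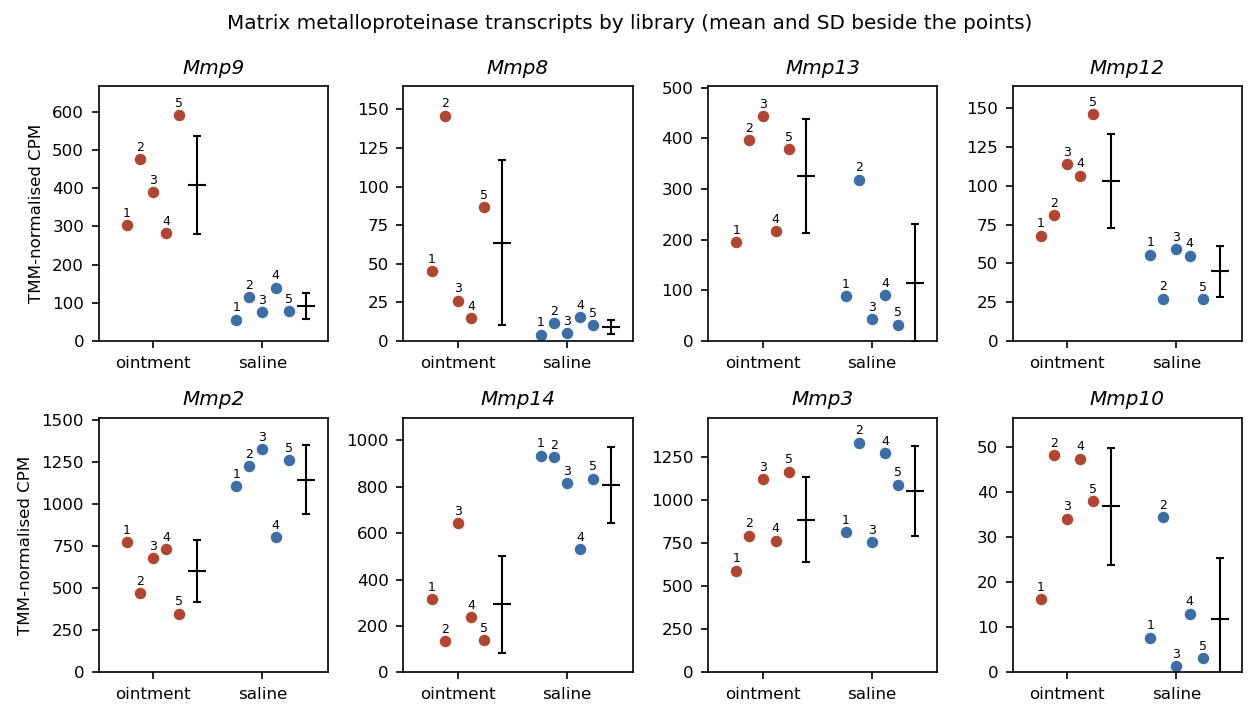
Level in CPM (y axes, each from 0) of the main MMP genes in each library, ointment left of saline, with the library number beside each point and the mean ± SD of the group as a bar. Mmp9 and Mmp12 are higher and Mmp2 is lower in every ointment library. The lower SD arms of saline Mmp13 and Mmp10 are cut at 0.

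Collagenases are able to cut the intact triple helix of fibrillar collagen. Mmp14, also a collagenase, is described with the membrane-type genes and was negative (log2 fold change -1.46). The 4 genes grouped here as collagenases, Mmp1a, Mmp1b, Mmp8 and Mmp13, all had positive differences, with a median log2 fold change of 2.07. None was called by edgeR, with 3 at an unadjusted p under 0.05 and 2 called by DESeq2. Mmp8 is the collagenase stored in neutrophil granules. It stood at 45.3, 146, 26.1, 14.6 and 86.6 CPM in ointment libraries 1 to 5, against 4.15, 11.4, 5.03, 15.3 and 10.4 CPM in saline libraries 1 to 5. Its value in ointment 4 was just under that of saline 4, the saline library with the highest neutrophil marker sum, and the other ointment libraries lay above all saline libraries. The difference missed the threshold (log2 fold change 2.79, SE 0.64, adjusted p = 0.0635). Leaving out each library in turn gave an adjusted p of 0.0363 to 0.14, and Mmp8 was called in 1 of these 10 fits, that without ointment 4. Mmp13 is the main interstitial collagenase of mice. Ointment libraries 1 to 5 held 195, 396, 444, 217 and 378 CPM of Mmp13, against 88.3, 319, 42.3, 89.9 and 31.9 CPM in saline libraries 1 to 5. Saline 2 lay within the ointment range and apart from the other saline libraries. With all libraries the difference was log2 fold change 1.51, SE 0.59, adjusted p = 0.227, and without saline 2 it was 2.38 (adjusted p = 0.0398). That was the 1 fit past the threshold as each library was left out, where the adjusted p of Mmp13 ran up to 0.393. Mmp1b, a rodent counterpart of interstitial collagenase, was scarce, at 1.6, 8.82, 4.23, 5.23 and 6.32 CPM in ointment libraries 1 to 5 and 0.0666, 1.98, 0.0827, 1.65 and 0.446 CPM in saline libraries 1 to 5 (log2 fold change 2.63, SE 0.91, adjusted p = 0.174; log2 fold change 3.23 without saline 2). Its sister gene Mmp1a, annotated as a polymorphic pseudogene, had 0.128 to 0.897 CPM with ointment and 0.0661 to 0.579 CPM with saline. The pair are near copies, and Mmp1b shares 157 exon bases with Mmp12 on the other strand, so how counts were divided among them is uncertain.

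Among the elastase and stromelysin genes, the values of Mmp12 did not overlap between the groups and those of the abundant Mmp3 did. Mmp12, macrophage metalloelastase, stood at 67.8, 81.1, 114, 107 and 146 CPM in ointment libraries 1 to 5, against 55.7, 27.2, 59.3, 54.9 and 26.7 CPM in saline libraries 1 to 5. The lowest ointment library (1) was above the highest saline library (3). The difference did not pass the threshold (log2 fold change 1.2, SE 0.30, adjusted p = 0.0757), and macrophage markers summed to 7448, 7452, 8576, 7205 and 9813 CPM in the same ointment libraries and 3877, 4076, 3332, 5813 and 5638 CPM in the saline libraries. Ointment 5 was the highest of its group in both. Of the saline libraries, saline 3 had the highest Mmp12 and the lowest macrophage sum. The part of macrophages in the Mmp12 difference was not tested. Mmp3, stromelysin 1, which cuts proteoglycans and activates other proMMPs, had 591, 794, 1124, 766 and 1168 CPM in ointment libraries 1 to 5 and 814, 1335, 756, 1273 and 1091 CPM in saline libraries 1 to 5. Its groups overlapped, with ointment 1 below every saline library and saline 2 and 4 above every ointment library (log2 fold change -0.25, SE 0.23, adjusted p = 0.667; 95% confidence interval -0.76 to 0.27). Mmp10, stromelysin 2 of wound-edge keratinocytes, ranged over 16.3 to 48.3 CPM with ointment and 1.42 to 34.4 CPM with saline (log2 fold change 1.63, SE 0.74, adjusted p = 0.296). Saline 2 held its highest saline value, and without that library the log2 fold change of Mmp10 was 2.56. Mmp11, or stromelysin 3 of stromal cells, had 56.6 ± 25.9 CPM in ointment ulcers and 82.8 ± 13.1 CPM in saline ulcers (SD, n = 5 each; log2 fold change -0.55, SE 0.33, adjusted p = 0.463).

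A run of 10 members lies side by side on chromosome 9, from Mmp13 at 7272514 to Mmp7 at 7699585 on GRCm38. It includes the genes grouped here as collagenases, stromelysins 1 and 2 and Mmp12. Of the 8 that were tested, 6 were positive, with a median log2 fold change of 1.36. No cluster gene was called by edgeR, with 5 at an unadjusted p under 0.05 and 3 called by DESeq2. Many MMP promoters are known to respond to the AP-1 factors (Fos and Jun), which bind TGACTCA or, read on the other strand, TGAGTCA. The stretches shown run from 110 bases before to 20 bases after the transcription start in RefSeq (GRCm38.p6), 5′ to 3′ on the gene's strand, with the AP-1 letters in capitals. They are shown because the 7 members with these letters, of the 36 members with a promoter in the table, all lie in this cluster, and Mmp8 is shown as a member of it without them. Mmp9 and Mmp2 were among the members not searched.
Mmp13 promoter, chr9:7272404-7272533, plus strand: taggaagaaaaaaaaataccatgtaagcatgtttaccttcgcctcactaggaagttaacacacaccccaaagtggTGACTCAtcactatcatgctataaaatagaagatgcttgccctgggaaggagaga
Mmp10 promoter, chr9:7502232-7502361, plus strand: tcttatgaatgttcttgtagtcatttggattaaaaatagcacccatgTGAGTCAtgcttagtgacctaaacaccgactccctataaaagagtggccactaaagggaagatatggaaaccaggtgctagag
Mmp3 promoter, chr9:7445712-7445841, plus strand: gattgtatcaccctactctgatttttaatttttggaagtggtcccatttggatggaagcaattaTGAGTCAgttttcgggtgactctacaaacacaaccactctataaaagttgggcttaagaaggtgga
Mmp12 promoter, chr9:7347264-7347393, plus strand: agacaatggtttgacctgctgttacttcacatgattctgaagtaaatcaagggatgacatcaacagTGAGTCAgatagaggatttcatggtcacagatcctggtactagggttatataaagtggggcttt
Mmp1b promoter, chr9:7388007-7388136, minus strand: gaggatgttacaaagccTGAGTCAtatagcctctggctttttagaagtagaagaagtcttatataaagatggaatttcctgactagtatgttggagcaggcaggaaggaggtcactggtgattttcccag
Mmp8 promoter, chr9:7558319-7558448, plus strand: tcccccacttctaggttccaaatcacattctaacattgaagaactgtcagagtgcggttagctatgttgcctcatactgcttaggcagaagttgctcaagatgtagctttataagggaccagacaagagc

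The AP-1 letters were found in windows of 300 bases, 250 before to 50 after the start, for 7 of the 10 cluster genes. They lay 35 bases before the start in Mmp13, 44 in Mmp12 (at the second of its start sites), 46 in Mmp3, 63 in Mmp10 and 93 in Mmp1b, and were also present in Mmp1a and Mmp7. Per window, 7 of 12 cluster promoters (58.3%) held them, beside 1709 of all 32851 promoters (5.20%) and none of the 26 other members with a promoter in the table. Mmp8, with the largest log2 fold change of the cluster (2.79), and Mmp27, at -0.39, had no match in this window. Mmp3, with a match, was at -0.25. Mmp1a, Mmp12, Mmp13, Mmp10 and Mmp1b, also with a match, were at 0.99, 1.20, 1.51, 1.63 and 2.63. Whether the letters bear on these differences was not tested. A match describes the sequence and is not evidence of binding. Of 13 genes for AP-1 and other factors that induce MMPs, 7 were positive and 6 negative, with none called by edgeR or DESeq2 and none at an unadjusted p under 0.05. Single libraries set some of these signs: Junb was listed at 0 in ointment 3 and Jund at 0 in ointment 2, and the count of positive genes ran from 6 to 9 of 13 as each library was left out. Those with the smallest p were Jun at -0.23 (adjusted p = 0.308), Nfkb1 at -0.25 (adjusted p = 0.321) and Fosl1 at 0.96 (adjusted p = 0.403).

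Within the saline group several cluster genes were high in the same libraries. Saline 2 ranked highest and saline 4 next of the 5 for Mmp13, Mmp1b, Mmp3 and Mmp10, and these libraries also held the highest values of Mmp8, in the order saline 4, then saline 2. The highest saline library held 9.99 times the lowest in Mmp13, 24.2 times in Mmp10 and 29.7 times in Mmp1b. In Mmp1b the lowest saline values, 0.0666 and 0.0827 CPM, are near the floor, so its ratio is poorly determined. These ratios exceed the fitted fold change between the groups, which was 2.85 in Mmp13, 3.08 in Mmp10 and 6.19 in Mmp1b. The measures are unlike, as the ratios compare extremes and the fold changes compare group averages. Mmp27, the member of the cluster with the least spread, had 11.3, 10.2, 13.8, 14.7 and 9.84 CPM in ointment libraries 1 to 5 and 19.3, 14.8, 15.4, 12.9 and 16.3 CPM in saline libraries 1 to 5 (log2 fold change -0.39, SE 0.16, adjusted p = 0.253).

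**Figure D4:**
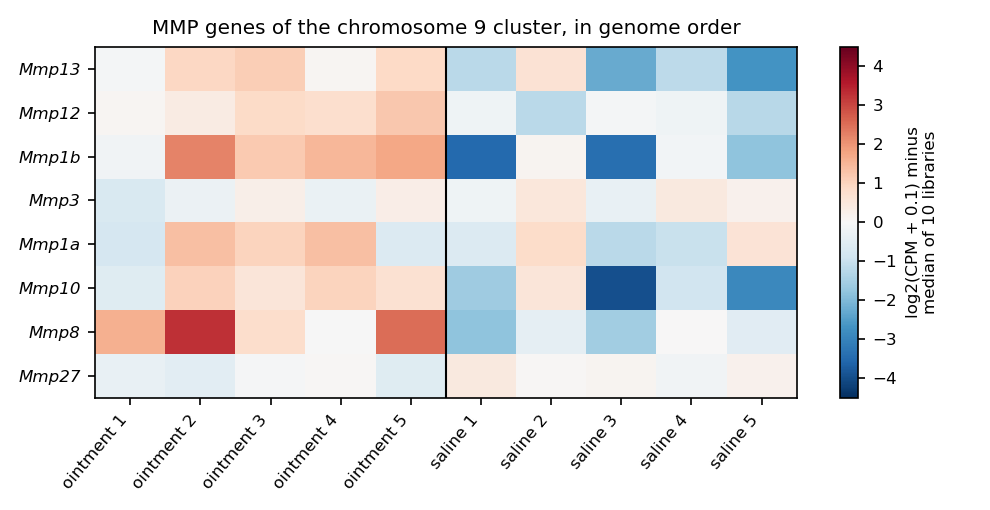
Heat map of the 8 tested MMP genes of the chromosome 9 cluster in their order along the chromosome (rows) and the 10 libraries (columns, ointment left of saline), coloured by log2 of CPM plus 0.1 minus the gene's median over the 10 libraries. Saline 2 and saline 4 have the highest saline values of Mmp13, Mmp1b and Mmp10, and Mmp8 is lower in all saline libraries than in 4 of the 5 ointment libraries.

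The membrane-type MMPs, anchored to the cell surface, gave 2 positive and 4 negative differences. None of the 6 was called by edgeR, with 2 at an unadjusted p under 0.05 and 2 called by DESeq2. Mmp14 (MT1-MMP, chr14:54431612-54445364) is a pericellular collagenase and the activator of proMMP2. It stood at 317, 135, 643, 237 and 139 CPM in ointment libraries 1 to 5, against 934, 929, 815, 531 and 835 CPM in saline libraries 1 to 5. Ointment 3 was the sole ointment library within the saline range, above saline 4. The difference was log2 fold change -1.46, SE 0.42, adjusted p = 0.113 with all libraries, and -1.97 (adjusted p = 0.0337) without ointment 3. That was the 1 fit past the threshold as each library was left out, where the adjusted p of Mmp14 ran up to 0.209. Mmp14 and Mmp2, activator and enzyme, had their lowest values in the same libraries, ointment 2 and ointment 5. These were also the 2 libraries with the lowest fibroblast marker sums, which ran to 32300, 12950, 23320, 20710 and 11470 CPM in ointment libraries 1 to 5 and 23900, 26720, 24490, 17390 and 28080 CPM in saline libraries 1 to 5. Ointment 1 had the highest fibroblast sum of all 10 libraries, and held 317 CPM of Mmp14 and 775 CPM of Mmp2, both below every saline library. Most of its fibroblast sum came from the collagen genes Col1a1 (12890 CPM) and Col1a2 (15600 CPM). The rank of a library by this sum therefore largely follows collagen transcript and need not follow the number of fibroblasts. The part of fibroblast content in these differences was not tested. Mmp25, a leukocyte membrane-type MMP (leukolysin), had 5.20, 14.6, 6.42, 6.45 and 15.6 CPM in ointment libraries 1 to 5 and 2.21, 4.21, 4.91, 4.68 and 2.16 CPM in saline libraries 1 to 5. Its groups did not overlap (log2 fold change 1.41, SE 0.40, adjusted p = 0.111). Ointment 2 and ointment 5, highest of their group in neutrophil markers, held the most Mmp25. Of the saline libraries, saline 3 held the most Mmp25 (4.91 CPM), and saline 4 had the highest neutrophil sum (2983 CPM, against 1402 CPM in saline 3). The part of neutrophils in the Mmp25 difference was not tested. The remaining membrane-type genes, Mmp15, Mmp16, Mmp17 and Mmp24, had log2 fold changes from -0.34 to 0.11 with adjusted p of 0.659 and above.

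Summed over all 23 genes, MMP transcript per length differed by less than the spread between libraries, at 1102 ± 173 CPM per kb with ointment and 1231 ± 191 CPM per kb with saline (SD, n = 5 each). The parts of single genes in that sum were as follows. Mmp9 took 10.4 ± 2.62% of the MMP sum with ointment and 2.11 ± 0.694% with saline, with ranges of 8.14 to 13.7% and 1.44 to 3.27%. Mmp13 took 10.9 ± 2.66% and 3.2 ± 2.67%, also without overlap, although saline 2 at 7.71% lay just under the lowest ointment library at 7.93%. The shares of Mmp2 (16.8 ± 6.74% with ointment, 28.1 ± 6.49% with saline) and Mmp14 (4.39 ± 2.58% and 11.2 ± 2.67%) were smaller on average with ointment, and their ranges overlapped. Mmp3 held 44.2 ± 6.48% with ointment and 47.2 ± 7.66% with saline, the biggest part in both. Shares of a sum are tied to each other, and these were not tested.

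Of the inhibitors, none was called by edgeR, with 2 of 4 at an unadjusted p under 0.05 and 1 called by DESeq2. Timp1, the secreted and injury-induced inhibitor, stood at 589, 1155, 1282, 219 and 1915 CPM in ointment libraries 1 to 5, against 114, 705, 207, 897 and 477 CPM in saline libraries 1 to 5. Ointment 4 was close to saline 3 and saline 4 was above ointment 1 and 4, so the groups overlapped (log2 fold change 1.10, SE 0.65, adjusted p = 0.438). Timp2, which also takes part in the activation of proMMP2 by MMP14, had 828, 95.9, 123, 704 and 393 CPM in ointment libraries 1 to 5 and 909, 145, 1038, 559.5 and 157 CPM in saline libraries 1 to 5. Both groups held high and low libraries, the highest over the lowest being 8.63 times with ointment and 7.14 times with saline, and the difference between groups was far within that spread (log2 fold change -0.39, SE 0.73, adjusted p = 0.864). Its spread within groups, an SD of 1.39 on the log2 scale, exceeded that of 96.9% of the 4449 genes with at least 50 CPM on average, and whether the assignment of reads contributed was not tested. Timp3, the matrix-bound inhibitor, had 14.1, 70.4, 124, 134 and 64.7 CPM in ointment libraries 1 to 5 and 210.1, 203, 167, 124 and 201 CPM in saline libraries 1 to 5. Ointment 1 was far below all others, and ointment 3 and 4 were at the level of the lowest saline library, saline 4 (log2 fold change -1.15, SE 0.48, adjusted p = 0.252). Timp4, the inhibitor with the narrowest tissue range, was rare, with 6.46, 21.3, 6.92, 14.9 and 8.21 CPM in ointment libraries 1 to 5 and 2.35, 1.11, 6.33, 2.63 and 2.26 CPM in saline libraries 1 to 5. The lowest ointment library (1) stood just above the highest saline library (3), so the groups did not overlap (log2 fold change 1.98, SE 0.51, adjusted p = 0.0836). Timp4 is known to be expressed in fat, and 5 adipocyte markers summed to 1078 to 1942 CPM with ointment and 476 to 1374 CPM with saline. Of these markers 4 of 5 were positive and 1 was called. Saline 3 was the highest saline library for both Timp4 and the adipocyte sum. Ointment 1 had the highest adipocyte sum and the lowest ointment value of Timp4, which was highest in ointment 2. The part of adipocyte content in the Timp4 difference was not tested.

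Timp3 shares 1733 exon bases with Syn3 on the other strand, and Timp4 shares 90 exon bases with Syn2. Without strand in the counts, reads from these pairs cannot be told apart. Summed over the 4 genes, TIMP transcript stood at 1284 ± 685 CPM per kb with ointment and 707 ± 309 CPM per kb with saline, with overlap. The ratio of the MMP sum to the TIMP sum was 1.09 ± 0.644 with ointment and 1.95 ± 0.633 with saline (SD, n = 5 each), its ranges of 0.537 to 2.20 and 1.03 to 2.79 overlapping. It was lowest in ointment 5, the library with the most Timp1.

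**Figure D5:**
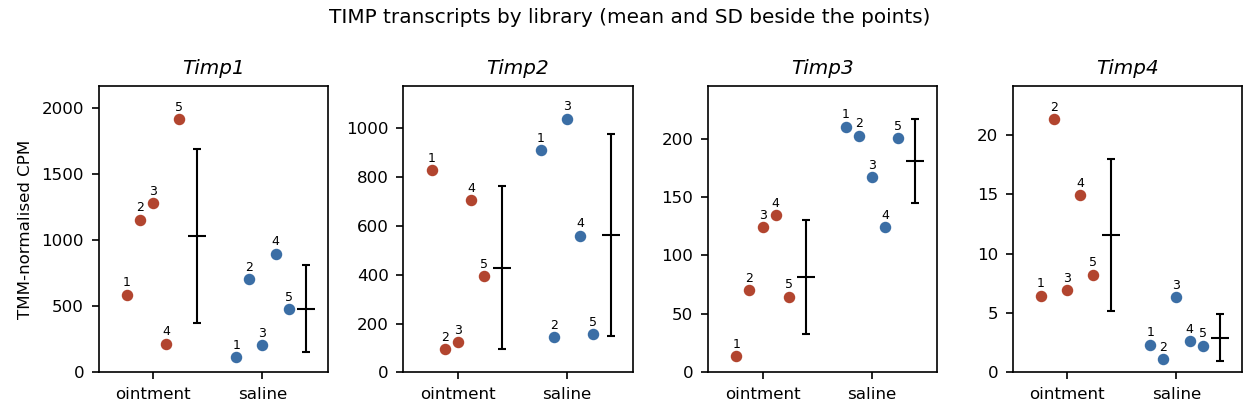
Level in CPM (y axes, each from 0) of Timp1, Timp2, Timp3 and Timp4 in each library, ointment left of saline, with library numbers beside the points and the mean ± SD of the group. Timp1 and Timp2 overlap between the groups, and Timp4 alone of the 4 is higher in every ointment library.

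Every ADAMTS gene but Adamts18 overlapped between the groups. The median absolute log2 fold change of the ADAMTS genes was 0.27, beside 0.28 for all genes tested and 0.74 for the MMP genes. None of the 19 was called by edgeR, with 2 at an unadjusted p under 0.05 and 1 called by DESeq2. That 1 was Adamts18, whose adjusted p by DESeq2 rounds to 0.05. Summed per length, ADAMTS transcript stood at 88.1 ± 12.5 CPM per kb with ointment and 90.0 ± 14.1 CPM per kb with saline, a difference well within the SD of either group. Of the 7 proteoglycanases, 3 were positive and 4 negative. Adamts1, which cuts versican and is induced by inflammation, had 81.9 ± 16.9 CPM in ointment ulcers and 50.8 ± 22.7 CPM in saline ulcers (SD, n = 5 each; log2 fold change 0.69, SE 0.29, adjusted p = 0.266). Adamts5, the main mouse aggrecanase, ranged over 32.0 to 184 CPM with ointment and 21.5 to 103 CPM with saline (log2 fold change 0.59, SE 0.59, adjusted p = 0.696). Its log2 fold change was -0.17 without ointment 2, its highest library. Adamts4, Adamts8, Adamts9, Adamts15 and Adamts20 had log2 fold changes from -0.34 to 0.13 and adjusted p of 0.741 and above. The 3 procollagen N-proteinases, Adamts2, Adamts3 and Adamts14, all had negative values, from -0.57 to -0.21, with adjusted p of 0.524 and above.

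The gene with the most negative difference of all members was Adamts18, of low level in these ulcers. It had 1.66, 0.374, 0.644, 1.76 and 0.151 CPM in ointment libraries 1 to 5 and 5.24, 2.72, 3.12, 2.21 and 1.87 CPM in saline libraries 1 to 5. Every ointment value was below every saline value, with ointment 4 and saline 5 closest, and the difference did not pass the threshold by edgeR (log2 fold change -1.72, SE 0.62, adjusted p = 0.189). The other 8 ADAMTS genes had log2 fold changes from -1.26 (Adamts17) to 0.59 (Adamts16), among them Adamts13, the protease of von Willebrand factor, at -0.56. Adjusted p in these was 0.389 and above. Of the 5 ADAMTS-like genes, none was called by edgeR or DESeq2 and 1 was at an unadjusted p under 0.05. That was Adamtsl5, with 18.2, 11.1, 16.2, 27.5 and 9.97 CPM in ointment libraries 1 to 5 and 30.2, 25.3, 29.6, 23.0 and 21 CPM in saline libraries 1 to 5, which overlapped (log2 fold change -0.64, SE 0.27, adjusted p = 0.257). Adamtsl4, which binds fibrillin microfibrils, was the positive one (log2 fold change 0.43, adjusted p = 0.313).

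The remaining MMP genes lay near 0. Mmp19, Mmp23 and Mmp28 (epilysin of keratinocytes) had log2 fold changes of 0.26, 0.09 and -0.35, with adjusted p of 0.864, 0.903 and 0.596. Mmp19 ranged over 42.7 to 122 CPM with ointment and 30.9 to 149 CPM with saline, and it shares 789 exon bases with Tmem198b on the other strand.

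Other genes of the pathway, chosen as activators, partners, substrates and inducers of these enzymes, were read in the same fit. Of 89 such genes 83 were tested, 50 of them positive. At an unadjusted p under 0.05 there were 18 (21.7%, beside 17.1% of all genes), and DESeq2 called 9 (10.8%, beside 9.06% of all genes). The groups did not overlap in 3.61%, beside 6.54% of all genes. By edgeR 1 (1.2%, beside 1.67% of all genes) was called. That gene was Hbegf, a membrane-bound growth factor shed by metalloproteinases, which rose to 54.9 ± 17.5 CPM in ointment ulcers, against 20.2 ± 7.37 CPM in saline ulcers (log2 fold change 1.44, SE 0.29, adjusted p = 0.0379). Leaving out each library in turn gave an adjusted p of 0.0308 to 0.0904, and of these 10 fits Hbegf was called in the 2 without ointment 4 or without saline 2. All 9 inducing cytokines and growth factors had positive values, with a median log2 fold change of 1.44, but ointment 5 alone set several of them. Il1b stood at 5116 CPM in ointment 5 and at 243 to 745 CPM in the other ointment libraries, against 8.86 to 892 CPM with saline. Without ointment 5, 6 of the 9 were positive with a median of 0.49, and Il1a, Il1b and Osm were at -0.51, -0.07 and -0.56. With all libraries Il6 was at 3.29 (adjusted p = 0.116; 2.15 without ointment 5) and Tnf at 1.45 (adjusted p = 0.200), neither past the threshold. In the plasmin system, which activates several proMMPs, 6 of 8 genes were positive and none was called by edgeR, with 1 at an unadjusted p under 0.05 and 1 called by DESeq2. That was the urokinase gene Plau, with 159, 122, 153, 171 and 106 CPM in ointment libraries 1 to 5 and 109, 102, 103, 89.7 and 90.4 CPM in saline libraries 1 to 5 (log2 fold change 0.52, SE 0.14, adjusted p = 0.0966), where ointment 5 alone lay within the saline range.

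Of the propeptide convertases, which remove propeptides of membrane-type MMPs and ADAMTS enzymes, 1 of 4 was positive (1 to 3 as each library was left out), Furin at 1.03 (adjusted p = 0.192). Adam8, a leukocyte sheddase, was the ADAM gene with the smallest p, at 1.67 (adjusted p = 0.0876), and 9 of 12 ADAM genes were positive. Among the partners, Thbs1, encoding thrombospondin 1, was at 1.99 (adjusted p = 0.175) and Spock1, encoding testican 1, at -1.95 (adjusted p = 0.240). The 4 astacin and enhancer genes tested were all negative, led by Pcolce2 at -0.78 (adjusted p = 0.164), whose protein speeds the removal of the procollagen C-propeptide. Matrix substrates were split, with 9 positive and 12 negative of 21. The aggrecan gene Acan, a substrate of the proteoglycanases, was at -2.0 (adjusted p = 0.0585), with 0.693 ± 0.417 CPM in ointment ulcers and 2.78 ± 0.813 CPM in saline ulcers (SD, n = 5 each). Ncan, encoding neurocan, a proteoglycan of the same family as aggrecan, lay the other way at 4.16 (SE 1.15, adjusted p = 0.103), with 4.37, 0.150, 2.89, 1.77 and 1.40 CPM in ointment libraries 1 to 5 and 0.216, 0.0804, 0, 0.285 and 0 CPM in saline libraries 1 to 5, so its groups overlapped at a very low level. The brevican gene Bcan was at -0.89 (adjusted p = 0.150). None of the genes in these groups was called by edgeR. At an unadjusted p under 0.05 there were 1 convertase, 3 ADAM, 3 partner, 1 astacin or enhancer and 6 substrate genes. These are 25.0% of each of the first 4 groups and 28.6% of the substrates tested, beside 17.1% of all genes. DESeq2 called 0, 2, 1, 0 and 3 (0%, 16.7%, 8.33%, 0% and 14.3%), beside 9.06% of all genes.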

How the data were processed

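RNA from ulcer tissue of db/db mice was sequenced in 10 libraries, 5 given saline with Fu Huang ointment and 5 given saline, grouped by title and treatment label. Per the labels' protocols, a SMARTer mRNA kit was used on column-purified total RNA, and nothing there says that strand was kept. Reads were placed on GRCm38 (mm10), per the submitters' processing notes, and the aligner and counter were not given in the sources used here, which also name no annotation. The authors deposited a single table of whole-number estimated counts for 55421 gene IDs, without normalization. In single-transcript genes the numbers 4, 8 and 12 were found 6129, 3017 and 1756 times, each more often than its neighbours, so a count is not taken as a read. They needed no rounding.

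Genes passing filterByExpr (minimum count 10, minimum total 15; 18509 genes) were fitted with edgeR 4.0.16 in R 4.3.3 (TMM, robust quasi-likelihood F-test, group as the only term, two-sided, Benjamini-Hochberg over all genes, threshold 0.05). The script was tested on simulated data. Levels are TMM-scaled CPM, and levels per length use merged exons of GENCODE mouse release 21, in which 55240 IDs were found. Promoters came from a RefSeq table on GRCm38.p6, with 36 of the 51 members matched. Totals of 47.8 to 62.9 M counts bound the precision of genes under 1 CPM most.

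The members and all lists were chosen with earlier results of these data known, and the lists were given counts and medians only. Values in each library are given for called members, for the 12 other members with the smallest p and for Timp1, Timp2, Timp3, Mmp2, Mmp14, Mmp3, Mmp8, Mmp12 and Mmp13. Adamts1, Mmp10, Mmp11, Adamts5, Mmp19, Mmp1a and Plau were described further after their values were seen. Alternatives were scaling by DESeq2 size factors, by upper quartiles or without the 50 most abundant genes, a low-count filter at 5 CPM or none, DESeq2 1.42.0, limma 3.58.1 voom with sample weights, the replicate number as a block, values divided by 4, 4 libraries per group, the longest transcript as length, and each library left out in turn.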

Additional observations from a re-analysis of the deposited data

Results flagged for a closer look

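Within groups of 5 libraries, a single library stood apart from the other 4 (Dixon's criterion, 0.71 of the group's range) in 9 of 96 groups examined (9.38%). The nominal rate of about 5% holds for independent, normally distributed values. CPM values of genes in the same libraries need not meet this, and no share over all genes is given, so no excess is read from it. The library was above the others in 5 of these. Adamts5 stood at 183.6 CPM in ointment 2, where the other ointment libraries had 32.0 to 52.0 CPM. Adamts9 stood at 51.0 CPM in ointment 1, with 36.2 to 37.8 CPM in the others. Mmp13, the collagenase of the chromosome 9 cluster, stood at 318.7 CPM in saline 2, with 31.9 to 89.9 CPM in the other saline libraries. Mmp19 was also highest in saline 2, at 149.2 CPM, with 30.9 to 49.6 CPM in the others. Mmp24, a rare membrane-type gene, stood at 0.696 CPM in saline 4, with 0.0666 to 0.248 CPM in the others. A library was below the others in the remaining 4. Adamtsl1 stood at 7.32 CPM in ointment 2, with 28.4 to 35.6 CPM in the other ointment libraries. Mmp15 stood at 6.58 CPM in saline 3, with 17.3 to 21.4 CPM in the other saline libraries. Mmp23 stood at 46.3 CPM and Adamtsl3 at 2.31 CPM in saline 4, where the others had 57.1 to 59.1 CPM and 3.39 to 3.63 CPM. Of these genes only Mmp13 crossed the threshold when the library was left out (adjusted p = 0.0398 without saline 2).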

How the results depend on the processing

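The replicate numbers did not pair the libraries: correlations of same-numbered deviations were -0.101 to 0.069, and 1 of 10 libraries matched its own number best. With the replicate block edgeR called 0 genes (2602 at an unadjusted p under 0.05), 0 members (13) and 0 pathway genes (16), and Mmp9 was at 2.17 (adjusted p = 0.141). The 310 genes, 1 member and 1 pathway gene called became 1677, 9 and 9 with DESeq2's Wald test. They became 59, 1 and 0 with 4 libraries per group, where 12 pathway genes were at an unadjusted p under 0.05 and Mmp9 was at 1.83 (adjusted p = 0.0445). Pathway genes called were 2 with voom and 2 with values divided by 4. Leaving out each library in turn gave 102 to 422 genes, 1 to 2 members and 0 to 3 pathway genes. Of 942 alternative values for members, 912 kept direction and side of the threshold, 11 newly passed it, 1 no longer passed it (Mmp9 with the block), and 18 in 13 genes changed sign, none past the threshold. Sign changes with 4 libraries per group were Adamts20 at 0.057, Mmp17 at 0.003, Mmp15 at 0.01 and Tll1 at 0.009. Over the fits without a library, log2 fold changes that crossed 0 ran from -0.048 to 0.41 in Adamts4, -0.65 to 0.061 in Adamts20, -0.17 to 1.10 in Adamts5, -0.032 to 0.95 in Mmp19 and -0.21 to 0.71 in Mmp24. They ran from -0.29 to 0.17 in Mmp16, -0.058 to 0.22 in Mmp23, -0.23 to 0.06 in Adamts9, -0.008 to 0.25 in Adamts6, -0.31 to 0.066 in Adamtsl1, -0.19 to 0.014 in Adamtsl3 and -0.17 to 0.047 in Pcsk7. Fewer libraries enter these fits; beyond that the cause was not tested. Scaling moved the median of all genes by no more than 0.03 (log2). Without a low-count filter all 51 members were tested, while the 5 CPM filter left 33. Members under 1 CPM are limited by depth.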
